A study of Mus musculus with 6 samples.

Results

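Transcripts of 39 splicing factor genes were examined in CD11b-positive cells of the mouse spinal cord, out of 47719 genes in the deposited table. Taken by name were 11 SR protein genes (Srsf and a number), 20 genes named Hnrnp and the SR-related genes Tra2a, Tra2b, Srrm1 and Srrm2. Pcbp1, Pcbp2, Ptbp1 and Ptbp3 completed the members. The proteins of Pcbp1 and Pcbp2 are also known as hnRNP E, and that of Ptbp1 as hnRNP I. No symbol occurred on more than 1 row, and 1 pseudogene name was left out. The cells came from Biozzi ABH mice, a strain used in models of multiple sclerosis, aged 3 months. The ECS group underwent electroconvulsive seizures (ECS) in 3 daily sessions, and its tissue was taken a day after the last. The labels call the other group control and naive, but their protocol has sham sessions in its place, and they name no allele or agent for either group. Each group had 3 libraries, each from a pool of 5 mice, so n is a number of pools, and every p-value below measures their spread. CD11b beads select microglia, which are the macrophages resident in brain and spinal cord, along with other myeloid cells, so the values describe a mixture.

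SR proteins carry RNA recognition motifs and a tail rich in arginine and serine, bind mainly to exonic sequences of the pre-mRNA and recruit the spliceosome to nearby splice sites. The hnRNP proteins coat nascent transcripts and often act in the opposite direction, by blocking splice sites or looping out exons, and several also act in mRNA export, stability and translation. Many genes of both families limit their own protein by splicing their transcripts into forms that are removed by nonsense-mediated decay. In macrophages, alternative splicing is part of the response to stimulation, and in T cells the hnRNP L-like protein of Hnrnpll sets the exon choice of the phosphatase gene Ptprc, which encodes CD45.

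The authors deposited FPKM, a fragment number divided by transcript length and by library size, so levels of different genes are compared here per length. Library sums of FPKM lay between 729831 and 1009665, and read numbers are unknown. ECS 1 stood apart, with 11427 genes above 0 against 12987 to 14900 in the other libraries. A gene was tested if its mean over the libraries reached 1 FPKM, which 11315 genes and 37 of the 39 members did. Markers of microglia were high in each library: the summed FPKM of 8 markers was between 7247 and 9807 in control and between 5743 and 8825 in ECS, and Itgam, which encodes CD11b, was between 504 and 747. Markers of neutrophils were also high. Their summed FPKM over 8 genes was between 10354 and 19357 in control and between 7806 and 9746 in ECS, so the groups did not overlap. Of the single genes only Ngp separated the groups, at 6014 to 8184 FPKM in control and 3664 to 5739 in ECS. For each of the others the groups overlapped. Of 4 markers of border-associated macrophages the sum was higher in ECS (101 to 129) than in control (33.6 to 79.6), again without overlap. That came from Cbr2, between 83.2 and 110 FPKM in ECS and between 15.1 and 63.7 in control. For Mrc1, Cd163 and Lyve1 the groups overlapped. Of 3 monocyte markers the sum was between 802.5 and 1426 in control and between 646 and 803.5 in ECS, with a slight overlap. Summed neuron markers reached at most 0.912 FPKM, with 2 of 5 genes at 0 in every library, and erythroid markers ranged from 2231 to 77287 across the groups. Summed markers ranged from 39.1 to 194 FPKM for oligodendrocytes and 17.9 to 131 for endothelial and mural cells. For T and NK cells the sum was 63.7 to 293, nearly all of it from Nkg7 (62.4 to 290). Of the T cell genes, Trbc2 was at 0 in every library, and Cd3e and Cd3d reached at most 3.29 and 2.62 FPKM. Control 1 and ECS 3 were lowest for the oligodendrocyte (39.1 and 48.4) and endothelial and mural sums (17.9 and 21.5). This did not hold for T and NK cells. Their erythroid sums were also lowest (2231 and 7207), but the erythroid genes disagreed. Hbb-bs, Hbb-bt and Alas2 were lowest in control 1 and ECS 3. Hba-a1 was at 2059 FPKM in control 1, 6510 in ECS 3 and 0 in every other library. Hba-a1 made up most of the sum in control 1 and ECS 3, so erythroid sums are not comparable across libraries. In such bulk samples fewer cells of a type and less RNA per cell cannot be told apart, and the part of these cell types in the results below was not tested.

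Promoters of the splicing factor genes were dense in CpG dinucleotides, the sites of DNA methylation in mammals. RefSeq promoters of 300 bases (GRCm38.p6, 250 bases before to 50 after a transcript start) were matched for 36 of the 39 members, with 50 starts in all. The median number of CpG was 31.5, against 20 over 10566 promoters of tested genes and 7 over all 32851 promoters of the table, and 47 of 50 member promoters (94%) held at least 20 CpG, against 52.6% of those of tested genes. The promoters shown were chosen because they belong to the member with the highest mean level, Ptbp1, and to the pair whose values did not overlap between the groups, Hnrnpdl and Hnrnpf. Each CpG is in capitals, and for Hnrnpf the start with the most CpG of 4 listed starts is shown. Ptbp1 lies at chr10:79854182-79854481 (plus strand, 22 CpG), Hnrnpdl at chr5:100039173-100039472 (minus strand, 42 CpG) and Hnrnpf at chr6:117907554-117907853 (plus strand, 37 CpG).
Ptbp1: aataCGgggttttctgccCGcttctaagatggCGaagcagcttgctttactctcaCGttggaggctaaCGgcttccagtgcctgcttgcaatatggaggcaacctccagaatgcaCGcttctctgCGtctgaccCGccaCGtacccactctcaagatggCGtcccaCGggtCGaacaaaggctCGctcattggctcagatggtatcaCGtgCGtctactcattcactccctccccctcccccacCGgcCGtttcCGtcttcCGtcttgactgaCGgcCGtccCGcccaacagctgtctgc
Hnrnpdl: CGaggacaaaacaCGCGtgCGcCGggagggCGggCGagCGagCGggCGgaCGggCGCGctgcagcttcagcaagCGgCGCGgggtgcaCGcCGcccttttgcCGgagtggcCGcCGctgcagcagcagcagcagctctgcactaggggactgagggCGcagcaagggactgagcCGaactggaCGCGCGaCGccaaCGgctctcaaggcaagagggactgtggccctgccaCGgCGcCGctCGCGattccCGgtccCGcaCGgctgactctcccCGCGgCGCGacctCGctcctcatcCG
Hnrnpf: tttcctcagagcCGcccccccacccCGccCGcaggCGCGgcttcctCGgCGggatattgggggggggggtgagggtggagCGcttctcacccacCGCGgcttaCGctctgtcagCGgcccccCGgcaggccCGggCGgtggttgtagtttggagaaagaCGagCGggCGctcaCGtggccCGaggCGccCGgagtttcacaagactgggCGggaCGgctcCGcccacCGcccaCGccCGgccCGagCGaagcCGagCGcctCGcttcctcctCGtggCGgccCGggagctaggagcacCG
The share of G and C was 58.3% for Ptbp1, 72.7% for Hnrnpdl and 73.7% for Hnrnpf. The fewest CpG among the members, 7, were in the most upstream start of Hnrnpf, and the most, 52, in Hnrnpa0. The letters CCGGAAG, the core bound by ETS factors, were sought on either strand. They occurred in 13 of 50 member promoters (26%), against 16.8% for tested genes and 8.86% for all promoters. Those 13 belonged to 8 genes. Starts of 1 gene were counted separately in each set, and close starts share bases. The letters CCAAT occurred in 48% of member promoters and 36.5% of those of tested genes, and TATAAA in 8% and 7.25%. CCGGAAG itself holds a CpG and the others do not, and a match describes letters, not binding.

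**Figure D1:**
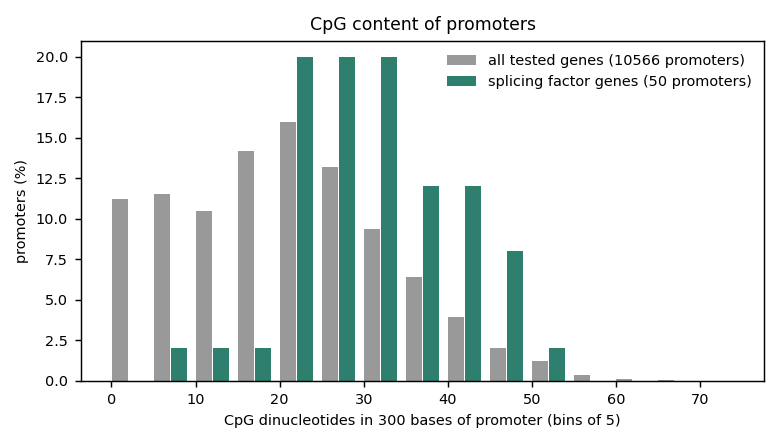
CpG dinucleotides in 300 bases of promoter (horizontal axis, bins of 5) against the percent of promoters in each bin (vertical axis), for 50 promoters of the splicing factor genes (green) and 10566 promoters of tested genes (grey). The green bars start at 7 CpG and most lie at 20 or more.

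GENCODE M21 lists at least 1 transcript marked for nonsense-mediated decay for 25 of the 39 members (64.1%), against 30.6% of 10274 tested protein-coding genes. The share was 9 of 11 for SR proteins, 4 of 4 for the SR-related genes and 10 of 20 for hnRNP genes. Transcripts with a retained intron were listed for 29 members (74.4%), against 62.1% of tested protein-coding genes. The member shares include the 2 members that were not tested. Genes were not matched for the number of listed transcripts, which was 1 for Pcbp1 and 34 for Hnrnpk. The deposited table gives 1 value per gene, so productive and decay-bound transcripts of a member are summed in the levels that follow.

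The members spanned a wide range of levels. The mean over the 6 libraries was at least 100 FPKM for 9 members, between 10 and 100 for 14, between 1 and 10 for 14 and under 1 for 2. Ptbp1, a repressor of exons that are used in neurons, had the highest mean, 805 FPKM, and ranked 120 among the 11315 tested genes. It had control values of 814, 906 and 599.7 FPKM (libraries 1, 2 and 3, the order kept below) and ECS values of 640.3, 958 and 910.3. Srrm1, a coactivator that bridges SR proteins and the spliceosome, followed, with control values of 494, 346 and 384 FPKM and ECS values of 647, 516 and 461. These led in each library, with Ptbp1 first in 5 libraries and Srrm1 first in ECS 1.

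Among SR proteins the order of levels was steep. Srsf3, the smallest SR protein, was the most abundant, with control values of 243, 295 and 269 FPKM and ECS values of 221, 436 and 245. Srsf11, an SR protein that interacts with the U2AF factor at the 3′ splice site, had control values of 164, 182 and 79.7 FPKM and ECS values of 71.4, 253 and 103. Srsf2, also called SC35 and a marker of nuclear speckles, had control values of 78.4, 87.9 and 47.3 FPKM and ECS values of 57.7, 71.7 and 60.1. Srsf6 followed with a mean of 42.9 FPKM, then Srsf5 (13.1), Srsf10 (11.9), Srsf7 (6.21), Srsf1 (6.02), Srsf4 (5.40) and Srsf9 (1.37). The order from Srsf3 down to Srsf5, and that of Srsf10 over Srsf7, held in each of the 6 libraries. Srsf5 and Srsf10, Srsf7 and Srsf1, and Srsf1 and Srsf4 changed places between libraries, so these neighbours were not separated. Srsf4 was above Srsf9 except in ECS 1, where both were listed at 0. Srsf1, the founding member of the family, thus lay near the lower end here. Srsf12 was listed at 0 in 5 libraries and at 0.276 FPKM in ECS 2.

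Within the SR-related group the order Srrm1, Srrm2, Tra2b, Tra2a held in each library. Srrm2, a large scaffold protein of nuclear speckles, had control values of 128, 84.8 and 99.6 FPKM and ECS values of 101, 134 and 101. Tra2b, which binds GA-rich exonic sequences, had control values of 10.6, 11.96 and 4.63 FPKM and ECS values of 6.22, 13.6 and 7.92. Its paralog Tra2a had a mean of 3.66 FPKM.

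The hnRNP genes ranged from Hnrnpk to Hnrnph3. Hnrnpk, whose protein binds C-rich RNA and DNA, had control values of 334, 338 and 218 FPKM and ECS values of 275, 369 and 290.2. Hnrnpl, which binds CA repeats, had control values of 133, 70.1 and 138 FPKM and ECS values of 118, 154 and 158. Hnrnpf, which binds runs of G and is described below, and Hnrnpc, which binds U-rich tracts, had means of 88.7 and 47.0 FPKM. Of 18 pairs of neighbours in the order of hnRNP levels 4 kept their order in all 6 libraries, so most neighbours were not separated. Means were 3.99 FPKM for Hnrnpa1, 3.56 for Hnrnpa0 and 3.14 for Hnrnpu, and they were higher for the other A members, at 14.8 for Hnrnpa2b1 and 11.8 for Hnrnpa3. Hnrnpa1 was between 2.10 and 5.79 FPKM over the libraries and Hnrnpu between 1.78 and 6.77. Of the remaining hnRNP genes, Hnrnpab lay between 18.1 and 35.2 FPKM, Hnrnpul1 between 10.1 and 23.8 and Hnrnpa3 between 8.28 and 20.8. Lower still were Hnrnpll (1.06 to 7.87), Hnrnpm (2.19 to 5.90), Hnrnph2 (0.997 to 5.37) and Hnrnpul2 (0.676 to 1.82). For most of these the libraries spanned a 2-fold range or more, with values of both groups mixed. Hnrnph3 did not reach the filter and was highest in control 2, at 1.89 FPKM.

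The poly(C)-binding and polypyrimidine tract-binding members were all abundant, in the order Ptbp1, Ptbp3, Pcbp2, Pcbp1 in each library. Ptbp3, known from blood cell lineages, had control values of 476, 264 and 284 FPKM and ECS values of 217, 186 and 372. Pcbp2 was among the steadiest members, with control values of 138, 132 and 101 FPKM and ECS values of 128, 109 and 123, a 1.36-fold range over all libraries. Together the 4 genes made up between 35.7% and 44.6% of the summed FPKM of the members, and all 39 members made up between 0.311% and 0.419% of the summed FPKM of a library.

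**Figure D2:**
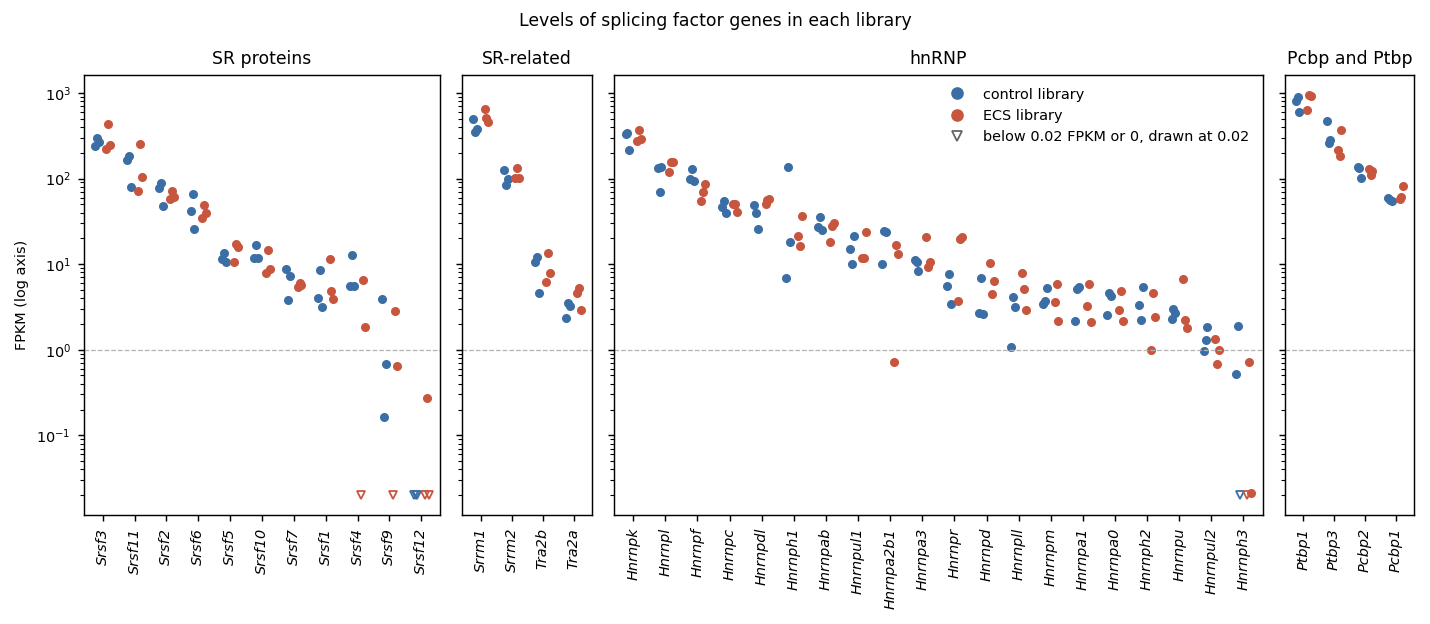
FPKM on a log axis for each of the 39 members, in panels by class and in the order of the mean, with 1 point per library (blue control, red ECS). Open triangles are values of 0, drawn at 0.02, and the dashed line is at 1 FPKM. Blue and red points lie over each other for most genes, and Ptbp1 and Srrm1 lie at the top.

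Near-identical copies can take or give reads in such counts. Pseudogenes of GENCODE M21 that matched the longest protein-coding transcript of a member at 95% identity or more over at least 300 bases numbered 58, for 13 members. Hnrnpa3 had the most, 26. The summed FPKM of the matching rows was highest for Hnrnpc, between 0 and 7.94 FPKM, against 39.6 to 54.0 for Hnrnpc itself. For the other members it reached at most 1.24 FPKM in any library, for the single row that matched Hnrnpk. Another annotated gene overlapped 22 of the 39 members, on the same strand for 9 and on the opposite strand for 18. The sources used here do not say whether strand was used in counting, so reads of a member and of its antisense partner cannot be told apart, and the levels of these members are uncertain to that extent. The locus that the authors deposited was over 1.5 times as long as the GENCODE gene for 10 of the 39 members. It was 31.7 times as long for Pcbp1, 11.96 for Srsf2, 6.54 for Srsf1, 4.60 for Hnrnph3, 3.27 for Hnrnpab, 3.07 for Ptbp1 (GRCm38, chromosome 10, 79854427 to 79864771, plus strand) and 2.08 for Pcbp2. For Hnrnpm, Srsf4 and Hnrnpk it was 1.78, 1.65 and 1.64 times as long. What these rows take in beyond the gene was not tested. For Srrm1 and Srsf3 no other annotated gene overlapped.

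Seizures and control treatment were compared to see which transcripts differ. No splicing factor gene was called: 0 of 37 tested members were higher and 0 were lower in ECS at an adjusted p under 0.05 (limma on log2(FPKM + 1), Benjamini-Hochberg over 11315 genes), where 0% of all tested genes were called higher and 0% lower. At an unadjusted p under 0.05 the count was 0 of 37 members, against 3.66% of all tested genes (1.71% higher and 1.94% lower). The lowest unadjusted p among members was 0.0573, and each of the 37 had an adjusted p of 1.00. By the sign of the log2 fold change 19 members were above 0 and 18 below, and 49.2% of all tested genes were above 0. The median log2 fold change was 0.015 over the members and -0.0078 over all tested genes.

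By class the medians were -0.12 over 10 tested SR protein genes (3 above 0), 0.24 over the 4 SR-related genes (4 above 0), 0.015 over 19 hnRNP genes (10 above 0) and 0.039 over the 4 Pcbp and Ptbp genes (2 above 0). The SR protein median was -0.37 without control 3, and it was above 0 without control 1 (0.024), control 2 (0.076) or ECS 1 (0.0068), so its sign rested on single libraries.

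The precision was better than for the average gene but did not exclude a 2-fold change for most members. For members, the median reach of the 95% interval on each side of the log2 fold change was 0.95, a 1.93-fold difference, against 1.23 for all tested genes. For 11 of the 37 members the whole interval lay within a 2-fold difference in either direction, among them Ptbp1 (-0.49 to 0.72), Hnrnpk (-0.52 to 0.70), Pcbp2 (-0.58 to 0.51) and Srrm1 (-0.15 to 0.97). For Hnrnph1 the interval ran from -2.45 to 2.09. The spread between pools of a group, as the SD of log2(FPKM + 1), had a median of 0.42 over members and 0.63 over all tested genes. Members are more abundant than the average gene, and by level the medians were 0.31 against 0.36 at 100 FPKM or more, 0.36 against 0.50 between 10 and 100, and 0.58 against 0.77 between 1 and 10.

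**Figure D3:**
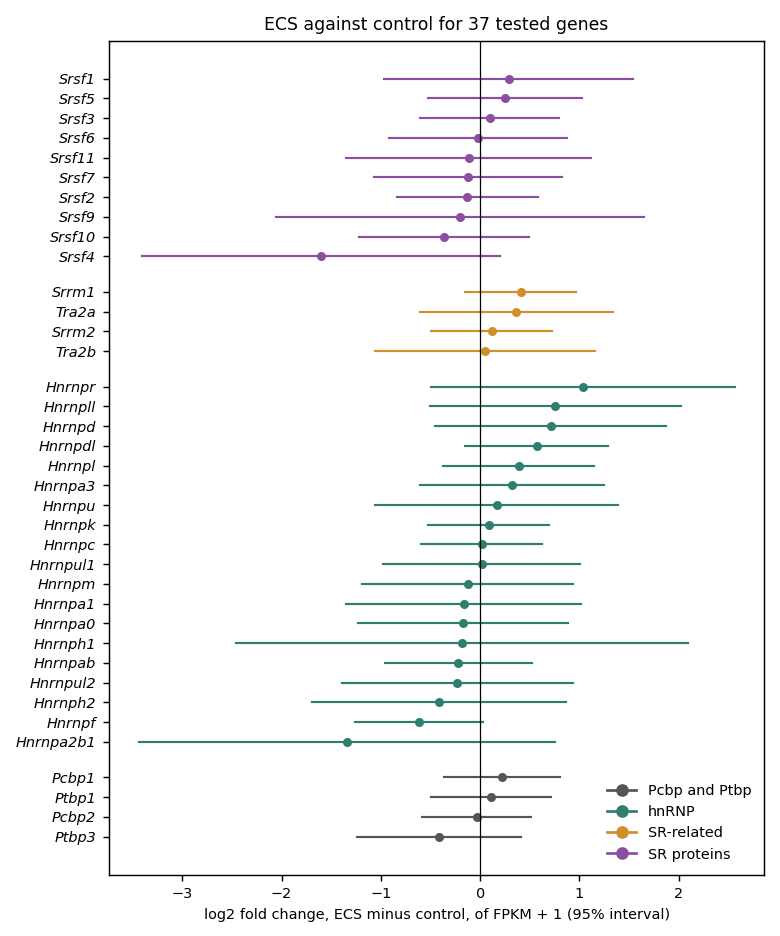
Log2 fold change of FPKM + 1, ECS minus control (horizontal axis), for the 37 tested members with 95% intervals from limma, by class. Each interval includes 0, and those of Srsf4, Hnrnpa2b1 and Hnrnph1 are among the widest.

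For 1 member all ECS values lay below all control values, and for 1 member all lay above. The same held for 3.79% and 3.69% of all tested genes, 7.49% together, so the share among members, 1 of 37 each way, was not above the background. Hnrnpf was the lower one, with control values of 99.5, 128 and 94.3 FPKM and ECS values of 54.1, 70.2 and 86.3. The log2 fold change was -0.62 ± 0.27 (SE, n = 3 each), with a limma adjusted p of 1.00. Hnrnpf lies on chromosome 6 (GRCm38, 117900324 to 117925622, plus strand), where the antisense genes 4933440N22Rik and Gm43863 overlap it, and 6 pseudogenes matched it, with summed levels of at most 0.518 FPKM.

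Hnrnpdl, a relative of Hnrnpd that binds AU-rich RNA, was the higher one. It had control values of 49.0, 39.6 and 25.7 FPKM and ECS values of 50.6, 56.9 and 58.4, so that ECS 1 and control 1 were nearly level. The log2 fold change was 0.57 ± 0.31 (SE, n = 3 each; limma adjusted p = 1.00), and it was 0.32 without control 3. No annotated gene overlaps Hnrnpdl on chromosome 5 (100033577 to 100039664, minus strand), and no pseudogene matched it. The summed markers of neutrophils and of border-associated macrophages, given above, separated the groups in the same way as these genes did. Of their single markers only Ngp and Cbr2 did so. The part of these cell types in the values of Hnrnpf and Hnrnpdl was not tested.

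Among the other hnRNP genes with the smallest p, values varied widely within a group. Hnrnpr, whose protein is close to that of Syncrip, had control values of 5.53, 7.67 and 3.41 FPKM and ECS values of 3.75, 19.9 and 20.5. ECS 2 and ECS 3 were above every control library and ECS 1 was not. Its log2 fold change was 1.03 ± 0.65 (SE, n = 3 each), and it was 1.75 without ECS 1, 0.68 without ECS 2 and 0.66 without ECS 3. Hnrnpa2b1, which binds mRNA destined for transport and is also known as a nuclear sensor of viral DNA, had control values of 9.98, 24.4 and 24.0 FPKM and ECS values of 0.720, 16.6 and 13.2. Its log2 fold change was -1.34 ± 0.90 (SE, n = 3 each), and it was -0.27 without ECS 1. Hnrnpd, also called AUF1, which binds AU-rich elements of short-lived mRNAs, had control values of 2.72, 6.89 and 2.59 FPKM and ECS values of 10.4, 4.54 and 6.28 (log2 fold change 0.71 ± 0.50, SE, n = 3 each). That was 0.43 without ECS 1, which held its highest value, and 1.08 without control 2. Each of these had a limma adjusted p of 1.00.

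Srsf4 had the largest difference among the SR proteins. It was at 5.49, 12.9 and 5.63 FPKM in control, and it was listed at 0 in ECS 1 and at 6.47 and 1.87 in ECS 2 and ECS 3. ECS 2 lay above control 1 and control 3, so the groups overlapped. The log2 fold change was -1.60 ± 0.77 (SE, n = 3 each) and -0.87 without ECS 1. An exact 0 in such a table can be a failed estimate. In ECS 1, 1580 of the tested genes had an exact 0, and the other libraries had between 448 and 806. Srsf9, at 3.89, 0.163 and 0.682 FPKM in control, was also listed at 0 in ECS 1 and was at 2.82 and 0.642 in ECS 2 and ECS 3.

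The next SR proteins by p were spread over both directions. Srsf10, which represses splicing when it loses its phosphates, averaged 13.5 ± 2.83 FPKM in the controls and 10.4 ± 3.71 after ECS (SD, n = 3 each), and its log2 fold change was -0.37 ± 0.37 (SE). It was -0.20 without ECS 1, -0.21 without control 2 and -0.62 without ECS 2. Srsf5 was at 11.8 ± 1.56 and 14.5 ± 3.49 FPKM, with 0.25 ± 0.33 (SE), and 0.45 without ECS 1 but 0.12 without ECS 2. Srsf1 was at 5.25 ± 2.94 and 6.78 ± 4.17 FPKM, with 0.29 ± 0.53 (SE), and its value turned to -0.12 without ECS 1, where it was highest, and reached 0.65 without control 2. Srsf2 was at 71.2 ± 21.2 and 63.2 ± 7.47 FPKM, with -0.13 ± 0.30 (SE), and it was 0.045 without control 2 but -0.39 without control 3. Srsf4 and each of these had a limma adjusted p of 1.00.

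In the SR-related group Srrm1 averaged 408 ± 76.9 FPKM in the controls and 541 ± 95.6 after ECS (SD, n = 3 each). The difference on the log2 scale was 0.41 ± 0.24 (SE; limma adjusted p = 1.00). The ECS library with the lowest value, ECS 3 at 461 FPKM, lay below control 1 at 494. Tra2a was at 3.05 ± 0.606 and 4.27 ± 1.22 FPKM, with 0.36 ± 0.41 (SE), and it was 0.22 without ECS 2, 0.24 without control 1 and 0.56 without ECS 3. Srrm2 had 0.12 ± 0.26 (SE), and -0.019 without control 2 but 0.27 without control 1. Of the Pcbp and Ptbp genes, Ptbp3 was at 341 ± 117 and 258 ± 100.0 FPKM, with -0.41 ± 0.35 (SE), and it was -0.15 without control 1, -0.21 without ECS 2 and -0.71 without ECS 3. Pcbp1, which also delivers iron to ferritin, was at 56.8 ± 2.11 and 67.0 ± 12.6 FPKM, with 0.22 ± 0.25 (SE), and 0.074 without ECS 3, which stood apart at 81.4. Ptbp1 had 0.11 ± 0.26 (SE), and -0.061 without control 3 but 0.29 without ECS 1.

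Over all 6 libraries, both groups together, the highest library was a median of 2.36 times the lowest over the 35 tested members with no 0, and it was under 2 times for 11, between 2 and 4 times for 18 and 4 times or more for 6. The widest were Hnrnpa2b1 (33.9 times, low in ECS 1) and Hnrnph1 (19.9 times). Hnrnph1, which binds runs of G like Hnrnpf and is named here after its values were seen, had control values of 6.86, 137 and 18.2 FPKM and ECS values of 21.1, 16.2 and 36.3, so that control 2 stood apart from all others.

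Control 3 held the lowest value for 14 of the 37 tested members (37.8%), against 15.4% of tested genes with 1 lowest library, and ECS 2 held the highest for 11 (29.7%), against 14.0% of tested genes. These shares changed with the scaling. When each library was rescaled to the same summed FPKM, control 3 was lowest for 4 members (10.8%, against 7.97% of tested genes) and highest for 9 (24.3%, against 30.3%). ECS 1 was then lowest for 14 (37.8%, against 29.4%), and ECS 2 was highest for 8 (21.6%, against 12.5%). Control 3 had the smallest summed FPKM of the 6 libraries. The SR proteins made up 23.4% of the members' summed FPKM in ECS 2, against 14.5% to 20.3% in the other libraries, and this share does not depend on the scaling.

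**Figure D4:**
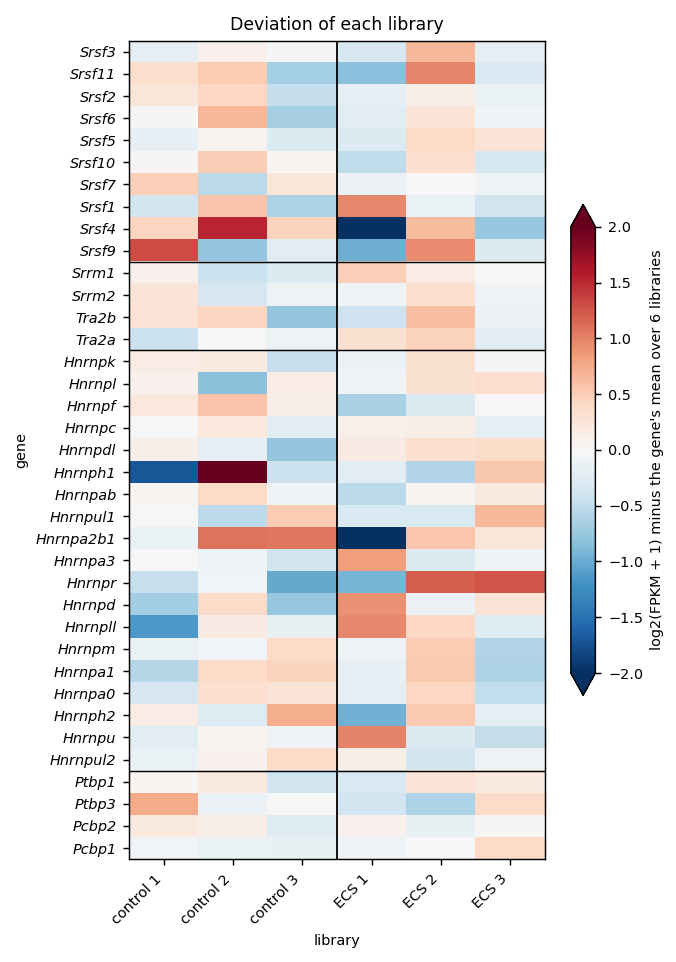
Deviation of log2(FPKM + 1) of each library (columns) from the mean of the gene over the 6 libraries (rows, 37 tested members by class), from blue (lower) to red (higher), with colours ending at 2 in either direction. In most rows the colours are mixed within each group, and single dark cells mark Hnrnph1 in control 1 and control 2 and Srsf4 and Hnrnpa2b1 in ECS 1.

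Genes that act with the SR and hnRNP proteins were read from the same fit, in lists chosen with earlier results of these data known. Of 13 genes for SR protein kinases, phosphatase and nuclear import, 13 were tested and 0 passed in either direction, with 7 above 0, 2 at an unadjusted p under 0.05 (3.66% of all tested genes) and a median log2 fold change of 0.028. Clk4, a nuclear kinase of SR proteins, had control values of 2.67, 5.33 and 7.27 FPKM and ECS values of 11.3, 8.83 and 15.7 (log2 fold change 1.13 ± 0.44, SE, n = 3 each). Srpk1, a kinase that phosphorylates SR proteins in the cytoplasm for their import into the nucleus, had control values of 1.48, 0.363 and 3.47 FPKM and ECS values of 6.44, 4.72 and 5.04 (log2 fold change 1.36 ± 0.54, SE). For both, all ECS values lay above all control values, as for 3.69% of all tested genes, and both had a limma adjusted p of 1.00.

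Of 42 other regulators of alternative splicing, a number that leaves out a gene not reported here, 35 were tested. Of these 20 were above 0, the median was 0.047 and 0 passed, with 1 at an unadjusted p under 0.05 (3.66% of all tested genes). Values did not overlap for 3 of them, with ECS above, against 3.69% of all tested genes. Rbm39, an SR-like protein related to U2AF, had control values of 26.0, 13.5 and 48.6 FPKM and ECS values of 55.1, 61.2 and 65.0 (log2 fold change 1.19 ± 0.45, SE, n = 3 each), and the groups did not overlap. Without control 2 the value was 0.74. Of 44 core spliceosome genes 43 were tested, 20 were above 0, the median was -0.026 and 0 passed. Of these 1 had an unadjusted p under 0.05 (3.66% of all tested genes), and 1 had ECS above without overlap (3.69% of all tested genes). Prpf3, of the U4/U6 particle, had control values of 9.60, 2.35 and 3.23 FPKM and ECS values of 19.2, 8.12 and 15.5. Its log2 fold change was 1.44 ± 0.55 (SE), and control 1 lay above ECS 2. Sf3a3, of the U2 particle, had control values of 1.73, 1.58 and 2.73 FPKM and ECS values of 7.79, 3.60 and 4.72, without overlap (log2 fold change 1.04 ± 0.45, SE).

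Of 15 genes of nonsense-mediated decay and the exon junction complex 13 were tested, 9 were above 0, the median was 0.15 and 0 passed, with 2 at an unadjusted p under 0.05 (3.66% of all tested genes). Values did not overlap for 2 of them with ECS above and for 1 with ECS below, against 3.69% and 3.79% of all tested genes. The lower one, named after its values were seen, was Smg9, a subunit of the SMG1 kinase complex, with control values of 79.2, 19.1 and 21.1 FPKM and ECS values of 12.5, 10.98 and 17.3 (log2 fold change -1.20 ± 0.56, SE). Magoh, a core subunit of the exon junction complex that splicing leaves on mRNA, had control values of 6.22, 0.549 and 2.14 FPKM and ECS values of 50.9, 15.0 and 6.70. Its log2 fold change was 2.50 ± 0.83 (SE, n = 3 each), and the lowest ECS value, 6.70, was close to the highest control value, 6.22. Upf3a, a decay factor, was at 1.37 and 2.66 FPKM in control 1 and control 3 and listed at 0 in control 2, and it was at 6.38, 3.41 and 7.53 in ECS (log2 fold change 1.67 ± 0.61, SE). Rbm39, Prpf3, Sf3a3, Magoh, Upf3a and Smg9 each had a limma adjusted p of 1.00. The rule named the others by their small p, so their size is not independent evidence of a direction.

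**Figure D5:**
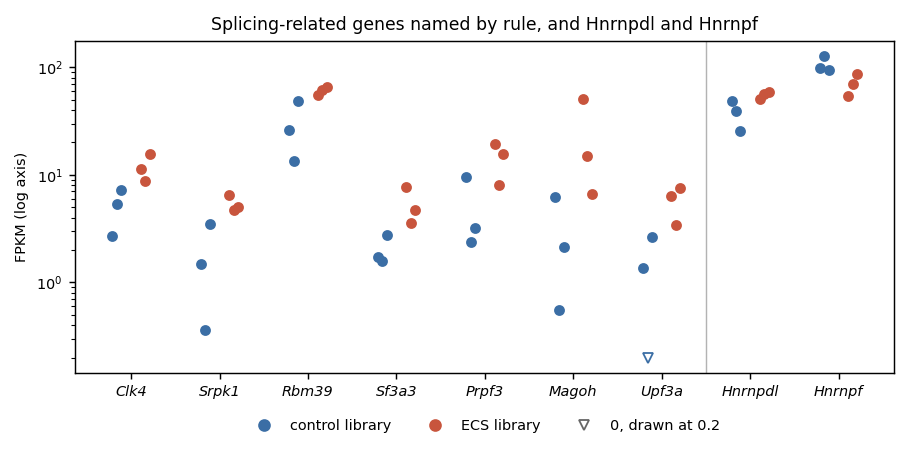
FPKM on a log axis in each library (blue control, red ECS) for the splicing-related genes that the rule named from the lists and, right of the line, for Hnrnpdl and Hnrnpf. Smg9, named outside the rule and with all ECS values below all control values, is not drawn. The open triangle is Upf3a in control 2, listed at 0, and the ECS points lie above the control points for each gene left of the line but Prpf3.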

How the data were processed

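Poly(A) RNA of CD11b-selected spinal cord cells (100 ng) was turned into libraries by the SENSE method, per the labels' protocols. The authors deposited gene-level FPKM for each library. The submitters' processing notes name GRCm38, TopHat2, Cufflinks and Cuffnorm. Versions, annotation, use of strand and how libraries were scaled: not given in the sources used here. FPKM keeps no read number: among low values of genes with 1 transcript, at most 24.5% lay near whole multiples (0.1 or less away) of any step size, and 20% do by chance, so no counting interval is given.

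Samples were grouped by their labels. The two-sided test of ECS minus control was limma 3.58.1 (R 4.3.3, trended variance) on log2(FPKM + 1), a scale that makes changes of low genes look smaller. It took genes averaging 1 FPKM or more and adjusted p over all of them. It was tested on simulated data, with planted changes larger than the log2 fold change of any member and only in genes of higher level. That test does not cover smaller changes or low genes. All 39 members matched GENCODE M21, on the deposited chromosome, and positions are from there. Pseudogenes were matched with blastn 2.17.0. The members, lists and rules were chosen with earlier results of these data known. The rule for named genes takes the 3 members of highest mean in each class (levels), the 5 (SR, hnRNP) or 3 of smallest p (with fold changes), members listed at 0, and the 2 genes of smallest p in each list. A gene that this rule takes is not reported here, and the counts of the list of other splicing regulators leave it out. Alternatives were pseudocounts, filters, rescalings, other limma settings, a replicate block, summed rows of a symbol and each library left out. Libraries with the same replicate number did not deviate together.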

Additional observations from a re-analysis of the deposited data

How the results depend on the processing

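The counts of members and of all genes called higher and lower were 0 under each of the 18 alternatives. They were also 0 with the threshold raised to 0.1, which was applied to the main settings only. The lowest limma adjusted p over all genes was 0.081 with a pseudocount of 0.5 and 0.098 with a pseudocount of 0.1. Unadjusted p fell under 0.05 for 0 or 1 members and for between 260 and 557 genes. The median log2 fold change of the members was between -0.061 and 0.11 with each library left out and between -0.073 and 0.073 otherwise, that of SR protein genes between -0.37 and 0.076 and between -0.21 and -0.019, and that of hnRNP genes between -0.040 and 0.12 and between -0.073 and 0.051. None of these moved by more than the spread between libraries of a group (0.20, 0.38 and 0.20). Leaving out 1 of 3 libraries can hardly move a median that far, so this does not show that the medians were stable. The SR protein median changed sign when single libraries were left out. With equal library totals the median of all genes was -0.087 in place of -0.0078. Of 410 values of 23 named genes, 405 kept their direction and none passed the threshold (lowest adjusted p 0.857). The other 5 reversed: Srsf1 was -0.12 without ECS replicate 1, Srsf2 0.045 and Srrm2 -0.019 without control replicate 2, Srrm2 -0.015 without ECS replicate 2 and Ptbp1 -0.061 without control replicate 3. With each library left out these genes spanned -0.12 to 0.65 (Srsf1), -0.39 to 0.045 (Srsf2), -0.019 to 0.27 (Srrm2) and -0.061 to 0.29 (Ptbp1). The causes were not tested. Deviations of libraries with the same replicate number had correlations of -0.038, 0.097 and -0.11, so no pairing by replicate number was seen. A pairing in another order or a shared batch was not tested. With a replicate block 0 members and 0 genes were called. The spread of 3 pools a group and the unknown read number limit what could be called.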

Other observations

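Relatives of the members that the naming rule leaves out varied as well. Ptbp2, the paralog of Ptbp1 that is used in neurons, had control values of 1.10, 9.87 and 7.41 FPKM (libraries 1 to 3) and ECS values of 1.36, 3.63 and 0.608, against at least 599.7 for Ptbp1 in every library. Pcbp3 had control values of 17.9, 21.1 and 11.5 FPKM and ECS values of 24.5, 13.8 and 27.3. Raly, a relative of Hnrnpc, was between 51.1 and 118 FPKM, and Syncrip, also called hnRNP Q, between 8.86 and 30.8. Rbmx, also called hnRNP G, was lowest in ECS 1, at 0.381 FPKM, and reached 10.9 in control 3.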
